A study of Mus musculus with 12 samples.

Results

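The genes described here are 9 of the 750 genes on an immune RNA panel: 8 genes of dendritic cells and Xcl1, the chemokine that draws 1 kind of dendritic cell. They were chosen by name and fall into a cross-presenting side (Xcr1, Flt3, Itgae and Itgax), the ligand Xcl1, and a mature or migratory side (Cd83, Lamp3, Ccl17 and Ccl22). All 9 were measured in 12 mouse tumors and all 9 passed the filter on low counts, which kept 729 of the 750 genes. The rule that chose them is their names and uses no measured value, although earlier results of these data were known when it was made.

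B16F10, a melanoma line of C57BL/6 mice, was grown as flank tumors in mice of that strain, and tumors were first injected on day 6. Early single-dose tumors received 1 injection of interleukin-2 and interleukin-12, each fused to a protein that binds collagen, and were collected 2 days later. Late single-dose tumors received the same single injection and were collected 8 days later. Repeat-dose tumors were given both cytokines again on day 6 counted from the first injection, and collection followed on day 8. Saline tumors received saline in place of cytokine and were collected 2 days later. Each group held 3 tumors, lettered A, B and C, and the 12 tumors came from 12 mice. Although the design text at 1 point counts 4 repeat-dose mice, only 3 tumors of that group were analysed here. NanoString nCounter bar-coded probes counted RNA extracted from fixed, paraffin-embedded tumor tissue. Early single-dose and saline tumors had the same age, as had repeat-dose and late single-dose tumors. For the day-8 groups set against saline, treatment and tumor age cannot be told apart. Nor can time after the dose and tumor age in late against early single-dose tumors.

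Dendritic cells take up antigen and show it to T cells. The conventional type 1 subset specializes in cross-presentation, the display of engulfed antigen to CD8 T cells, and carries the chemokine receptor XCR1. Its ligand XCL1 is made by natural killer (NK) cells and activated CD8 T cells, and in mouse tumors this pair of molecules is known to bring type 1 dendritic cells next to those lymphocytes. When dendritic cells mature they raise CD83 and LAMP3, secrete CCL17 and CCL22, and move to the lymph node under the receptor CCR7.

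Whether the genes rose or fell depended on how the tumors were scaled. The 20 housekeeping probes had a geometric mean of 529.9 to 1168 in repeat-dose, 1217 to 1638 in late single-dose and 1246 to 2002 in early single-dose tumors, against 2309 to 3034 in saline tumors. The positive controls, targets spiked in at fixed amounts, were 1519 to 1658, 1477 to 1748 and 1266 to 1574 in the same order of groups, against 1645 to 1660 in saline tumors. Total counts ran from 392596 in repeat-dose tumor C to 1232726 in early single-dose tumor B. Scaled counts are raw counts divided by a tumor's housekeeping mean relative to that of all tumors. On this scale the median of the 729 genes lay above saline by 0.56 (log2) for the early single dose, 0.78 for the late single dose and 1.19 for the repeat dose. Most fold changes against saline below are therefore also given relative to that median.

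Relative to that median, the values in repeat-dose tumors against saline differed little between the 4 scalings tried. This was fixed in advance, because each scaling is 1 factor per tumor and shifts all genes and their median nearly alike. The likeness is therefore no check of the scalings. Itgax lay 0.90 to 1.01 (log2) above the median, Xcr1 0.15 to 0.18 above it and Xcl1 between -0.04 and 0.10. Ccl22 lay at -0.99 to -0.92. Lamp3 lay at -1.38 to -1.28, with only 1 of the 3 repeat-dose tumors above background, and Ccl17 was above background in none of them, so no exact value is given for it. These are differences of fitted values and carry no test of their own. The tests on each scale follow, gene by gene.

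Xcr1 encodes the receptor that marks type 1 dendritic cells. The gene spans chr9:123852315-123862029 (mouse build GRCm38.p6, minus strand). Xcl1, its ligand, spans chr1:164931644-164935522 on the minus strand. The promoters of this receptor and ligand pair are shown because the report turns on whether both moved together, each 300 bases from 250 before to 50 after the annotated start, 5′ to 3′ on the gene's strand, from RefSeq (GRCm38.p6, chr9:123861980-123862279 and chr1:164935473-164935772).
Xcr1: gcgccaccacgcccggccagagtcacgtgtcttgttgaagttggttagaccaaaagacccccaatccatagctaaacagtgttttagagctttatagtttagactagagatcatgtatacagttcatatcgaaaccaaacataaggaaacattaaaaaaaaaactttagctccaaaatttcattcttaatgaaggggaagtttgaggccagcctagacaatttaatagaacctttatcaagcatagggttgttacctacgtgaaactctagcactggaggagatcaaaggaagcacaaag
Xcl1: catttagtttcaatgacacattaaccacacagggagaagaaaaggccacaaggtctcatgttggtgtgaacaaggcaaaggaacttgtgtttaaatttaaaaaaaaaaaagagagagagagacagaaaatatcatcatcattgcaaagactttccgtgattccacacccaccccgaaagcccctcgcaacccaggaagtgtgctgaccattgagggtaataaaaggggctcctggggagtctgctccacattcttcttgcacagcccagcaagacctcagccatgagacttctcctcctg
Neither window held the interferon-gamma-activated site of STAT factors (TTCNNNGAA), an interferon regulatory factor motif (GAAA, any 2 bases, GAAA) or an NF-κB motif (GGG, any 2 bases, TTTCC) on either strand. Of 32817 promoters of that length, 8.29% held the first, 3.43% the second and 1.63% the third. No match says only that these letters are not in the window.

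Xcr1 had scaled counts of 105, 81.8 and 87.3 in repeat-dose tumors A, B and C, against 37.4, 28.0 and 40.7 in saline tumors. All 3 repeat-dose tumors lay above all 3 saline tumors and above the early single-dose tumors, which had 70.5, 34.1 and 43.1. Of the 729 genes, 64.1% had all repeat-dose above all saline tumors. The late single-dose tumors had 59.3, 39.9 and 82.4, so tumor C of that group reached into the repeat-dose range and tumor B into the saline range. Xcr1 averaged 91.4 ± 12.1 in repeat-dose and 35.4 ± 6.57 in saline tumors (SD, n = 3 each). Its log2 fold change was 1.37 ± 0.35 (SE), with an edgeR adjusted p = 0.0064. Relative to the median of all genes that is 0.18. Against saline it was 0.77 ± 0.35 in late single-dose tumors (relative -0.01, edgeR adjusted p = 0.103) and 0.47 ± 0.35 in early single-dose tumors (relative -0.09, adjusted p = 0.364). All 3 comparisons share the saline tumors.

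The raw counts of Xcr1 showed no such order. They were 72, 62 and 30 in repeat-dose tumors, 63, 40 and 65 in late single-dose and 57, 42 and 56 in early single-dose tumors, against 56, 49 and 80 in saline tumors. These ranges overlap in every pair of groups. With TMM scaling, which assumes that most genes are level, the fold change in repeat-dose tumors was 0.16 (log2, edgeR adjusted p = 0.630), and with the positive controls alone -0.11 (adjusted p = 0.845). Scaled by total count it was -0.28 (edgeR adjusted p = 0.489). The rise of Xcr1 was thus a rise relative to the housekeeping genes, and the gene moved with the median of the panel.

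Xcl1 showed the same dependence on scaling with a wider spread. Its scaled counts were 322, 269 and 145.5 in repeat-dose tumors, 241, 155 and 243 in late single-dose and 119, 162 and 208 in early single-dose tumors, against 162, 94.3 and 77.2 in saline tumors. Repeat-dose tumor C lay below saline tumor A, so these groups overlap. Xcl1 averaged 246 ± 90.7 in repeat-dose and 111 ± 44.6 in saline tumors (SD, n = 3 each), a log2 fold change of 1.15 ± 0.38 (SE, relative -0.04, edgeR adjusted p = 0.0219). That call was lost without repeat-dose A (edgeR adjusted p = 0.0918), repeat-dose B (0.0560), saline B (0.0770) or saline C (0.0828), and with TMM scaling the value was -0.02 (adjusted p = 0.964). In late single-dose tumors the value was 0.94 ± 0.38 (relative 0.16, edgeR adjusted p = 0.0715), and in early single-dose tumors 0.56 ± 0.38 (relative -0.00, adjusted p = 0.308).

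**Figure D1:**
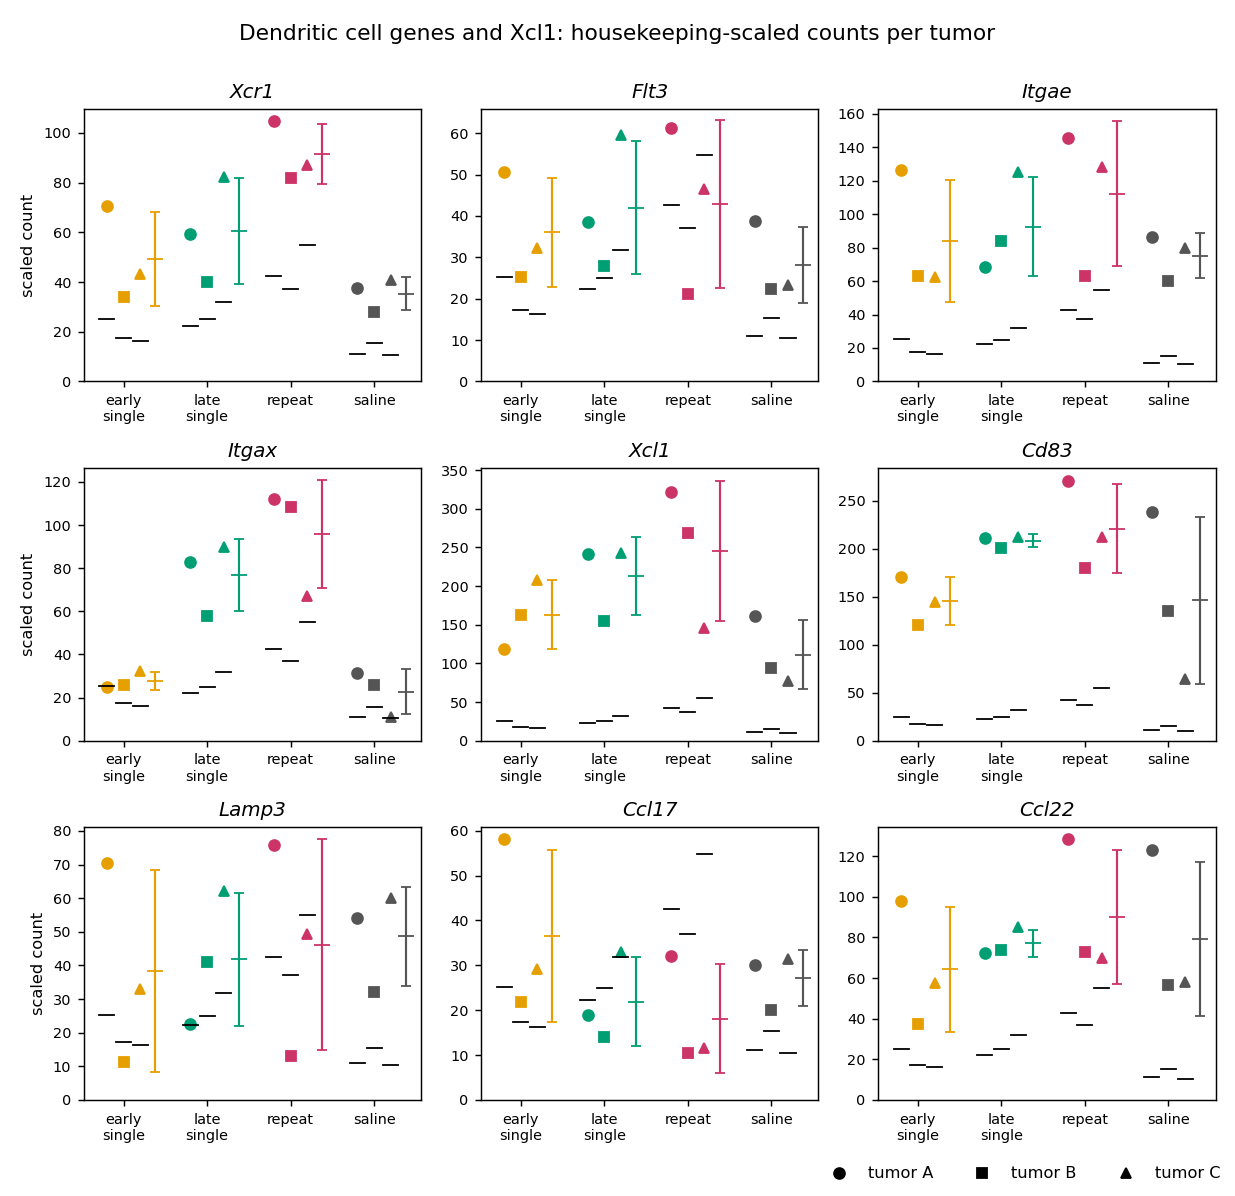
Housekeeping-scaled counts of the 9 genes in each tumor, with groups on the x axis, the 3 tumors of a group as a circle, square and triangle, and the group's mean and SD as the bar beside them. Short black lines mark each tumor's background limit. Xcr1 and Itgax are higher in all 3 repeat-dose tumors than in any saline tumor, as are 64.1% of the 729 genes tested. Ccl17 lies under the limit in all 3 repeat-dose tumors.

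**Figure D2:**
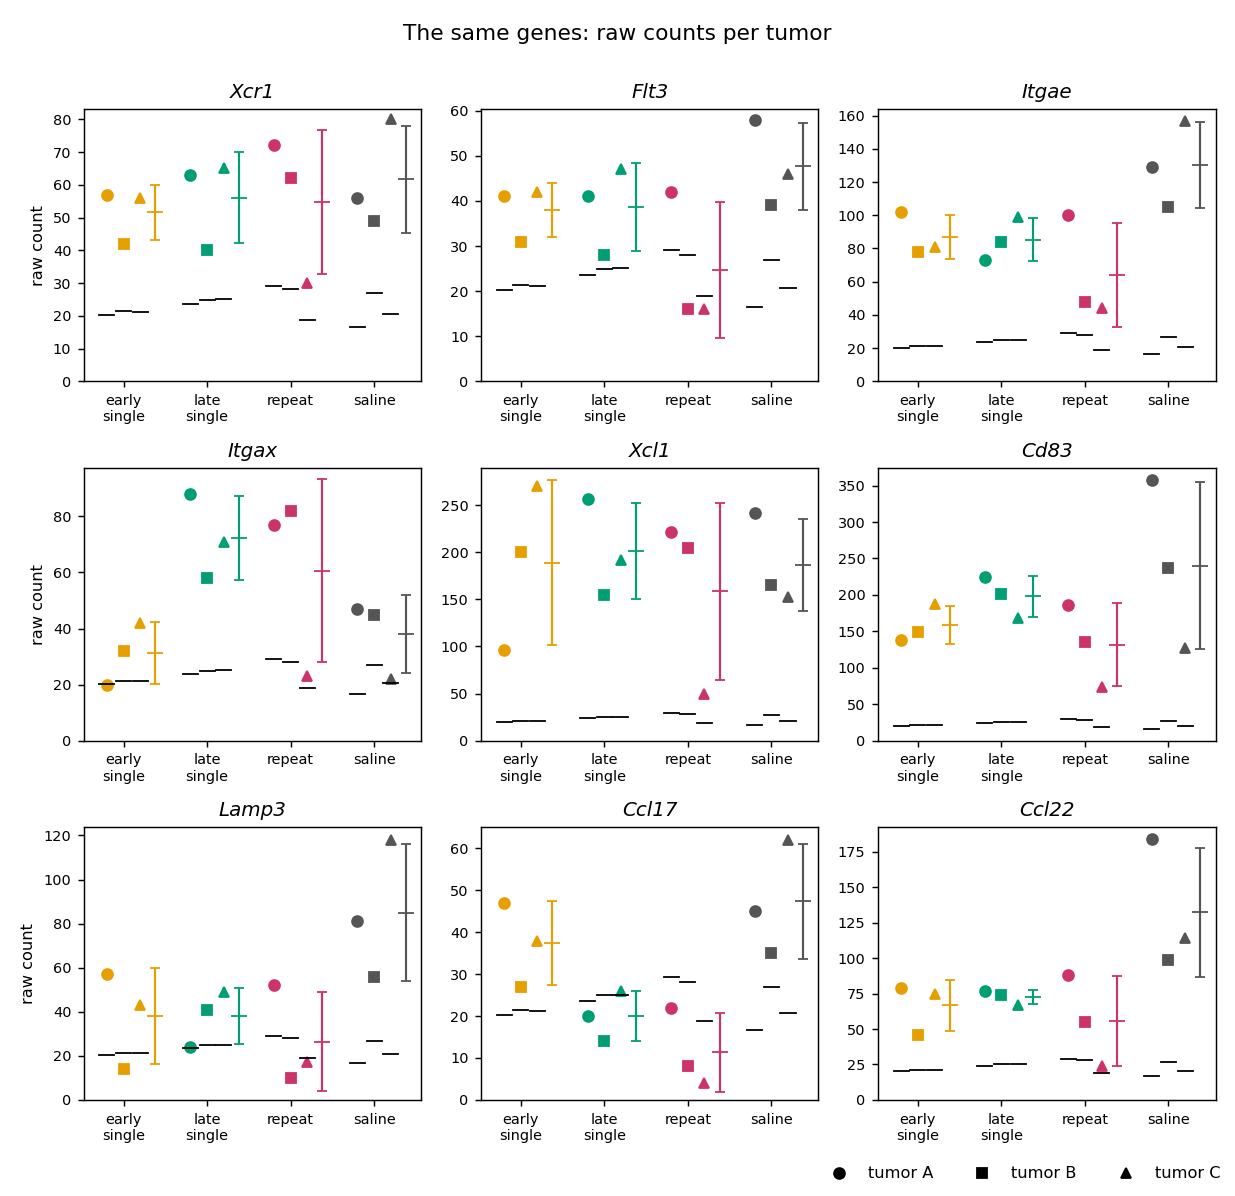
Raw counts of the same 9 genes in each tumor, drawn in the same way, with no scaling. Raw counts of Xcr1, Flt3 and Xcl1 overlap between groups, and those of Ccl22 are below every saline tumor in all treated tumors. How many panel genes do the same was not counted.

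Receptor and ligand kept no fixed proportion to each other. Within a tumor the log2 ratio of Xcl1 to Xcr1, which needs no scaling, averaged 1.34 ± 0.54 in repeat-dose, 1.83 ± 0.24 in late single-dose and 1.74 ± 0.86 in early single-dose tumors, against 1.58 ± 0.60 in saline tumors (SD, n = 3 each). The ranges overlap between all groups. A ratio between genes has no absolute meaning here, because each probe binds with its own efficiency, so only its differences between tumors are read. Across the 12 tumors the scaled levels of both genes had a Pearson r of 0.61, which fell to 0.10 once each group's mean was subtracted and was -0.31 over the 12 tumors with TMM scaling. Tumors in such a correlation share the housekeeping factor and the treatment.

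The panel genes most like Xcl1 differed between and within groups. Over all 12 tumors they were Lyz2 (r = 0.92), Tlr9 (0.92), Emr1 (0.91), Tlr1 (0.91) and Cd48 (0.91), of which Lyz2 and Emr1 are genes of macrophages and other myeloid cells. After each group's mean was subtracted they were Klrd1 (0.95) and Ncr1 (0.94), both receptors of NK cells, then Tlr9 (0.90), Ctsw (0.90) and Gzma (0.89), of which the last encodes a granule protease of killer cells. With TMM scaling Ncr1 and Klrd1 again came first after group means were subtracted, at 0.94 each. Over the 12 tumors with TMM scaling the first were instead Tlr1 (0.76), Fap (0.71), Cd99 (0.70), Ifngr1 (0.70) and Runx1 (0.70), and neither Lyz2 nor Emr1 was among them. Ncr1 had scaled counts of 204, 236 and 102 in repeat-dose tumors, against 69.5, 41.2 and 37.6 in saline tumors. Repeat-dose tumor C was the lowest of its group and saline tumor A the highest of its own for Xcl1, and the same holds for Ncr1. On the housekeeping scale, 6 of 9 NK markers on the panel rose in repeat-dose, 5 in late single-dose and 6 in early single-dose tumors. Their summed scaled count was 1746 to 2989, 903 to 2129 and 1560 to 1924 in that order, against 394 to 804 in saline tumors. Of 9 T cell markers, 6, 6 and 1 rose in the same order. Over all genes tested, 59.4%, 39.1% and 30.5% rose in that order on the housekeeping scale. In bulk tissue fewer cells of a type and less RNA per cell cannot be told apart, and the part of NK cell number in the level of Xcl1 was not tested.

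The genes most like Xcr1 were Creb5 (0.94), Pdcd1lg2 (0.94), Tollip (0.94), Cd53 (0.93) and Slc7a11 (0.93) over the 12 tumors. After group means were subtracted they were Elk1 (0.97), Tnfsf15 (0.93), Creb5 (0.92), Gata3 (0.91) and Icam4 (0.90). With TMM scaling the first over the 12 tumors was Ccl28, at 0.76. No other member was among these genes.

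**Figure D3:**
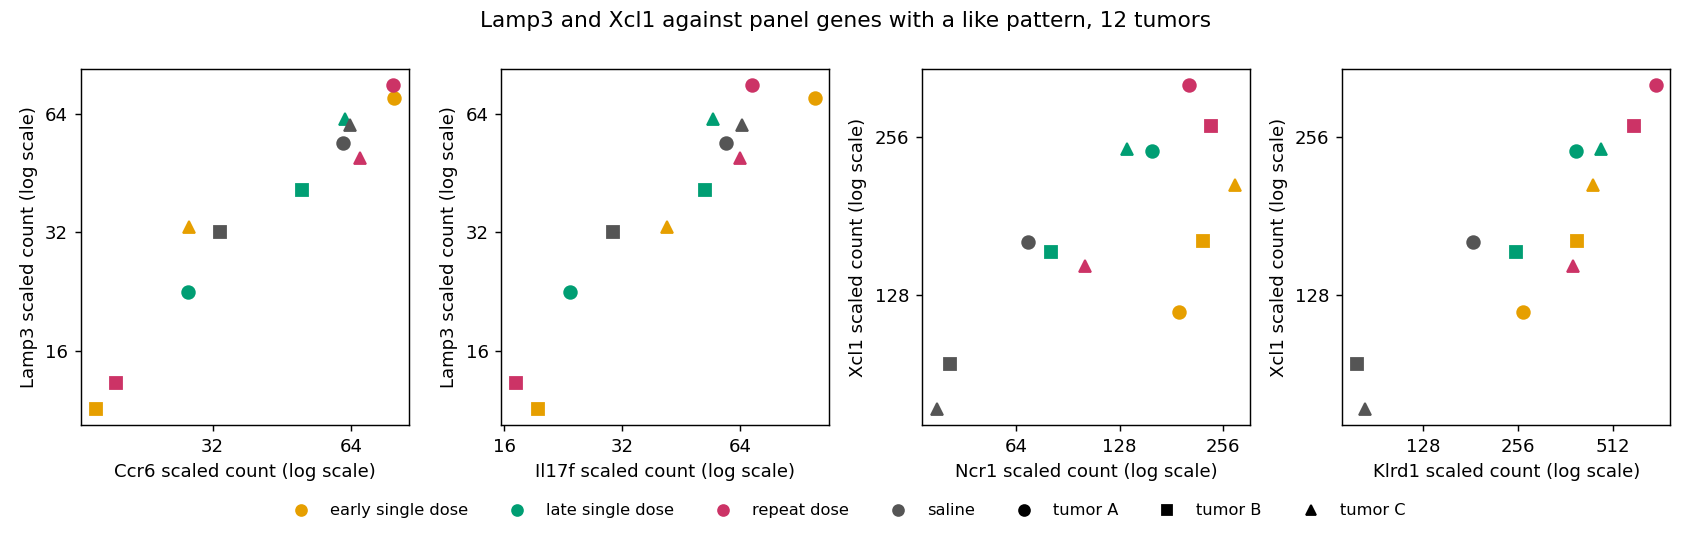
Scaled counts on log axes, 1 point per tumor with color for the group and shape for the tumor's letter: Lamp3 against Ccr6 and Il17f, and Xcl1 against Ncr1 and Klrd1. Early single-dose tumor B and repeat-dose tumor B are the lowest points for Lamp3, and saline tumors B and C for Xcl1.

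Itgax, which encodes the integrin subunit CD11c of dendritic cells and of many macrophages, was the member that stood highest above the panel's median in day-8 tumors. It spans chr7:128129526-128150657. Its scaled counts were 112, 108 and 66.9 in repeat-dose tumors, 82.8, 57.9 and 90.0 in late single-dose and 24.7, 26.0 and 32.4 in early single-dose tumors, against 31.4, 25.7 and 11.2 in saline tumors. All 6 day-8 tumors lay above all 6 tumors collected 2 days after the first injection. Of the 729 genes, 64.1% had all repeat-dose above all saline tumors and 42.5% all late single-dose above all saline tumors. For late above early single-dose tumors the share was 6.72%, and for all 6 above all 6 it was not counted. In repeat-dose tumors Itgax averaged 95.8 ± 25.1 against 22.8 ± 10.4 in saline tumors (SD, n = 3 each), a log2 fold change of 2.09 ± 0.39 (SE, relative 0.90, edgeR adjusted p = 0.0015). In late single-dose tumors it averaged 76.9 ± 16.8 (SD, n = 3), a log2 fold change of 1.76 ± 0.39 (relative 0.98, edgeR adjusted p = 0.0084). In early single-dose tumors the value was 0.29 ± 0.39 (relative -0.27, edgeR adjusted p = 0.645), and tumor A of that group was not above background.

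Between the time points Itgax was 1.46 ± 0.39 (SE) higher in late than in early single-dose tumors, with an edgeR adjusted p = 0.174 over 729 genes and a DESeq2 adjusted p = 0.0200. Time after the dose and tumor age differ together in that comparison. Against the late single dose no difference passed for Itgax, which was 0.33 ± 0.37 in repeat-dose tumors set against the late single-dose tumors of the same age (edgeR adjusted p = 0.631). With TMM scaling the rise of Itgax against saline was 0.91 in repeat-dose (edgeR adjusted p = 0.0546) and 0.99 in late single-dose tumors (adjusted p = 0.0608). A fit of late single-dose and saline tumors alone gave 1.76 with an edgeR adjusted p = 0.0576. Itgb2, the partner that pairs with CD11c, averaged 2964 ± 1122 in repeat-dose and 258 ± 148 in saline tumors (SD, n = 3 each), a log2 fold change of 3.52 ± 0.59 (SE, relative 2.33, edgeR adjusted p = 0.0010). Of 8 macrophage markers 8 rose in repeat-dose, 6 in late single-dose and 2 in early single-dose tumors, against 59.4%, 39.1% and 30.5% of all genes. The summed scaled count of these markers was 8512 to 28482, 5366 to 13231 and 4310 to 9066, against 858 to 3290 in saline tumors. Their part in the level of Itgax was not tested.

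Flt3, the receptor for the growth factor FLT3 ligand that dendritic cell precursors need, did not pass in any comparison. It spans chr5:147330741-147400489. Its scaled counts were 61.2, 21.1 and 46.6 in repeat-dose tumors, 38.6, 27.9 and 59.6 in late single-dose and 50.7, 25.1 and 32.4 in early single-dose tumors, against 38.7, 22.3 and 23.4 in saline tumors. The groups overlap throughout, and repeat-dose tumors B and C were not above background with 16 raw counts each. The log2 fold change was 0.60 ± 0.47 (SE, relative -0.59, edgeR adjusted p = 0.294) in repeat-dose tumors. Its ligand Flt3l, by contrast, had 203 ± 42.4 scaled counts in repeat-dose, 117 ± 56.0 in late single-dose and 135 ± 19.4 in early single-dose tumors, against 31.7 ± 8.71 in saline tumors (SD, n = 3 each). Flt3l rose in all 3 comparisons, by 2.68, 1.88 and 2.10 (log2; relative 1.49, 1.10 and 1.54) in that order, with edgeR adjusted p values of 0.00077, 0.0070 and 0.00336. In repeat-dose tumors the rise of Flt3l was 1.49 with TMM scaling (edgeR adjusted p = 0.000625). Ligand and receptor therefore differed in whether they passed, and the difference between them was not tested.

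Itgae encodes the integrin subunit CD103, which binds E-cadherin and is carried by type 1 dendritic cells of tissues and by resident T cells. It spans chr11:73090505-73147449. Scaled counts were 146, 63.4 and 128 in repeat-dose tumors, 68.7, 83.8 and 125 in late single-dose and 126, 63.3 and 62.4 in early single-dose tumors, against 86.2, 60.0 and 79.8 in saline tumors. The groups overlap, and the log2 fold change in repeat-dose tumors was 0.57 ± 0.40 (SE, relative -0.62, edgeR adjusted p = 0.242). It was -0.67 with TMM scaling (edgeR adjusted p = 0.0614) and -1.07 by total count (adjusted p = 0.0332), so the sign of the change turned with the scaling.

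Cd83, which encodes a surface protein of mature dendritic cells and activated lymphocytes, spans chr13:43785112-43803133. It had scaled counts of 271, 179.5 and 212 in repeat-dose tumors, 212, 201 and 213 in late single-dose and 171, 121 and 145 in early single-dose tumors, against 238, 135.5 and 64.5 in saline tumors. All 3 late single-dose tumors lay above all 3 early single-dose tumors (edgeR adjusted p = 0.822), as for 6.72% of the 729 genes. The late single-dose tumors lay close together, whereas saline tumors A and C spanned nearly the whole range of the gene. The log2 fold change was 0.60 ± 0.39 (SE, relative -0.59, edgeR adjusted p = 0.215) in repeat-dose and 0.51 ± 0.39 (relative -0.27, adjusted p = 0.328) in late single-dose tumors. Without saline tumor A the repeat-dose value was 1.14 with an edgeR adjusted p = 0.0168, and by total count it was -0.97 (adjusted p = 0.0371).

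Ccl17 and Ccl22 encode chemokines that mature dendritic cells and some macrophages secrete, and both bind CCR4, a receptor of regulatory and type 2 helper T cells. The genes are neighbours on chromosome 8, Ccl22 at chr8:94745684-94751388 and Ccl17 at chr8:94809380-94812038 (GRCm38.p6, plus strand). Their promoters are shown because these neighbours share a receptor and their ratio differed between tumors, each 300 bases from RefSeq (GRCm38.p6, chr8:94810203-94810502 for Ccl17, whose window lies inside the gene's full span, and chr8:94745434-94745733 for Ccl22), with the interferon-gamma-activated site in capitals.
Ccl17: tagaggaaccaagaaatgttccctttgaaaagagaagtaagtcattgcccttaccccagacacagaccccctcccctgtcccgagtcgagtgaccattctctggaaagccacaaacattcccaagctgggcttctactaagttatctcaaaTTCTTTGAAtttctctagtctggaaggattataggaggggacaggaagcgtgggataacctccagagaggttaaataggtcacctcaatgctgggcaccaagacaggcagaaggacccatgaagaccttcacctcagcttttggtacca
Ccl22: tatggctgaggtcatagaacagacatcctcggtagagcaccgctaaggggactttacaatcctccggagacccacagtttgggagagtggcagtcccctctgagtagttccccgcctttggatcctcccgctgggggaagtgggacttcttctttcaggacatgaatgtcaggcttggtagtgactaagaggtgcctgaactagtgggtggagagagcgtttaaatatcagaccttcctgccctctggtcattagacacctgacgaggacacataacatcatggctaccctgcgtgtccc
The Ccl17 window held 1 match of TTCNNNGAA, whose first base lies at -99 from the annotated start, and the Ccl22 window none. Neither window held the other motifs searched. A match is a description of letters and not of a bound site.

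Ccl17 was not above background in any repeat-dose tumor. Its raw counts there were 22, 8 and 4, under limits of 29.2, 28.1 and 18.9. Late single-dose tumors had 20, 14 and 26 raw counts, of which only tumor C exceeded its limit, and early single-dose tumors had 47, 27 and 38, against 45, 35 and 62 in saline tumors. All early single-dose and saline tumors were above background. On the housekeeping scale no fold can be given for repeat-dose tumors, since their limits lie above the saline level, and the edgeR adjusted p was 0.418. With TMM scaling Ccl17 fell in repeat-dose tumors (edgeR adjusted p = 0.0033) and was at least 1.39-fold lower than in saline tumors, set against the background limits. With the positive controls alone it was at least 1.78-fold lower (edgeR adjusted p = 0.0093) and by total count at least 1.87-fold lower (adjusted p = 0.00262). In late single-dose tumors it fell with TMM scaling (edgeR adjusted p = 0.0440) and by total count (adjusted p = 0.0416) but not with housekeeping scaling (adjusted p = 0.679), and with 1 of 3 tumors above background no exact fold is given.

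Ccl22 was measured above background in every tumor. Its scaled counts were 128, 72.6 and 69.8 in repeat-dose tumors, 72.5, 73.9 and 84.9 in late single-dose and 97.7, 37.3 and 57.8 in early single-dose tumors, against 123, 56.6 and 57.9 in saline tumors. Tumor A was the highest of its group in repeat-dose, early single-dose and saline tumors, and all groups overlap. The log2 fold change in repeat-dose tumors was 0.20 ± 0.42 (SE, relative -0.99, edgeR adjusted p = 0.720). It reversed with scaling: Ccl22 fell by 0.99 with TMM (edgeR adjusted p = 0.0233), by 1.18 with the positive controls (adjusted p = 0.0457) and by 1.42 by total count (adjusted p = 0.0100). In raw counts, repeat-dose tumors had 88, 55 and 24, against 184, 99 and 114 in saline tumors, with no overlap. Raw counts carry each tumor's total, which was 1132157, 1038324 and 392596 in repeat-dose tumors, against 737987 to 784379 in saline tumors. How many panel genes had no overlap in raw counts was not counted. In early single-dose tumors it was -0.31 ± 0.42 (SE, relative -0.87, edgeR adjusted p = 0.660), and by total count it fell by 1.22 (adjusted p = 0.0290).

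The level of Ccl17 set against that of Ccl22 within a tumor needs no scaling. The log2 ratio averaged -2.30 ± 0.34 in repeat-dose, -1.85 ± 0.50 in late single-dose and -0.82 ± 0.13 in early single-dose tumors, against -1.45 ± 0.57 in saline tumors (SD, n = 3 each, raw count + 1). All 3 early single-dose tumors, at -0.96 to -0.74, lay above all 6 day-8 tumors, at -2.64 to -1.33. Saline tumors, at -2.01 to -0.87, overlapped with all other groups. In day-8 tumors the ratio rests on Ccl17 counts at background, so it is compressed there. Ccr4, the receptor of both chemokines, was at 0.06 ± 0.45 (log2, SE, relative -1.13, edgeR adjusted p = 0.913) in repeat-dose tumors against saline, and fell by 1.18 with TMM scaling (adjusted p = 0.0172).

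Lamp3, which encodes a lysosomal membrane protein known from mature human dendritic cells, varied more within groups than between them. It spans chr16:19653381-19706365. Its scaled counts were 75.8, 13.2 and 49.5 in repeat-dose tumors, 22.6, 40.9 and 62.1 in late single-dose and 70.5, 11.4 and 33.1 in early single-dose tumors, against 54.1, 32.0 and 60.0 in saline tumors. Repeat-dose tumor B and early single-dose tumor B were the lowest, and neither was above background, nor was repeat-dose tumor C. The log2 fold change was -0.09 ± 0.71 (SE, relative -1.28, edgeR adjusted p = 0.921) in repeat-dose tumors, -1.38 with TMM scaling (adjusted p = 0.0595) and -1.64 with the positive controls (adjusted p = 0.0274).

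The genes most like Lamp3 were not members. Over the 12 tumors they were Ccr6 (r = 0.97), Klra3 (0.96), Il25 (0.96), Il17f (0.95) and Ccr3 (0.94), and the same 5 led after group means were subtracted, at 0.97 to 0.98. They encode receptors of lymphocytes and eosinophils and interleukins, and their counts were low, with repeat-dose tumor B not above background for any of them. Ccr6 had scaled counts of 78.7, 19.8 and 66.9 in repeat-dose tumors and 61.4, 33.2 and 63.5 in saline tumors. The mean of these 5 genes, a measure chosen after their values were seen, had an r of 0.98 with Lamp3, 0.84 with Itgae, 0.71 with Flt3, 0.64 with Ccl22 and 0.55 with Ccl17. With Xcr1 it was 0.37, with Cd83 0.21, with Itgax -0.07 and with Xcl1 -0.18. What Lamp3 and Itgae share with these low-count genes was not tested.

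Counted over the 9 genes, the housekeeping-scaled test called fewer than the panel as a whole. In repeat-dose tumors against saline, 3 of 9 rose (Itgax, Xcr1 and Xcl1) and none fell, while 59.4% of the 729 genes rose and 1.92% fell. In late single-dose tumors 1 of 9 rose (Itgax), against 39.1% of all genes that rose and 0.137% that fell. In early single-dose tumors 0 of 9 passed in edgeR, 0 had an unadjusted p under 0.05 and 0 passed in DESeq2 with housekeeping factors, against 30.5% of all genes that rose and 0.686% that fell. The median of the 9 was 0.60 (log2) in repeat-dose, 0.51 in late single-dose and 0.29 in early single-dose tumors, below that of all genes at 1.19, 0.78 and 0.56. All 3 repeat-dose tumors lay above all saline tumors for 2 of the 9 genes and for 64.1% of the 729.

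The calls downward came with other scalings. In repeat-dose tumors against saline, 2 of 9 fell with TMM scaling (Ccl17 and Ccl22) and none rose, against 23.2% of all genes that fell and 32.1% that rose. With the positive controls 3 of 9 fell (Ccl17, Ccl22 and Lamp3), against 21.5%, and by total count 5 of 9 fell (these and Cd83 and Itgae), against 34.3%. In late single-dose tumors 1 of 9 fell with TMM scaling and 1 by total count (Ccl17 in both), against 8.92% and 19.2%. In early single-dose tumors 1 of 9 fell by total count (Ccl22), against 22.1%.

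**Figure D4:**
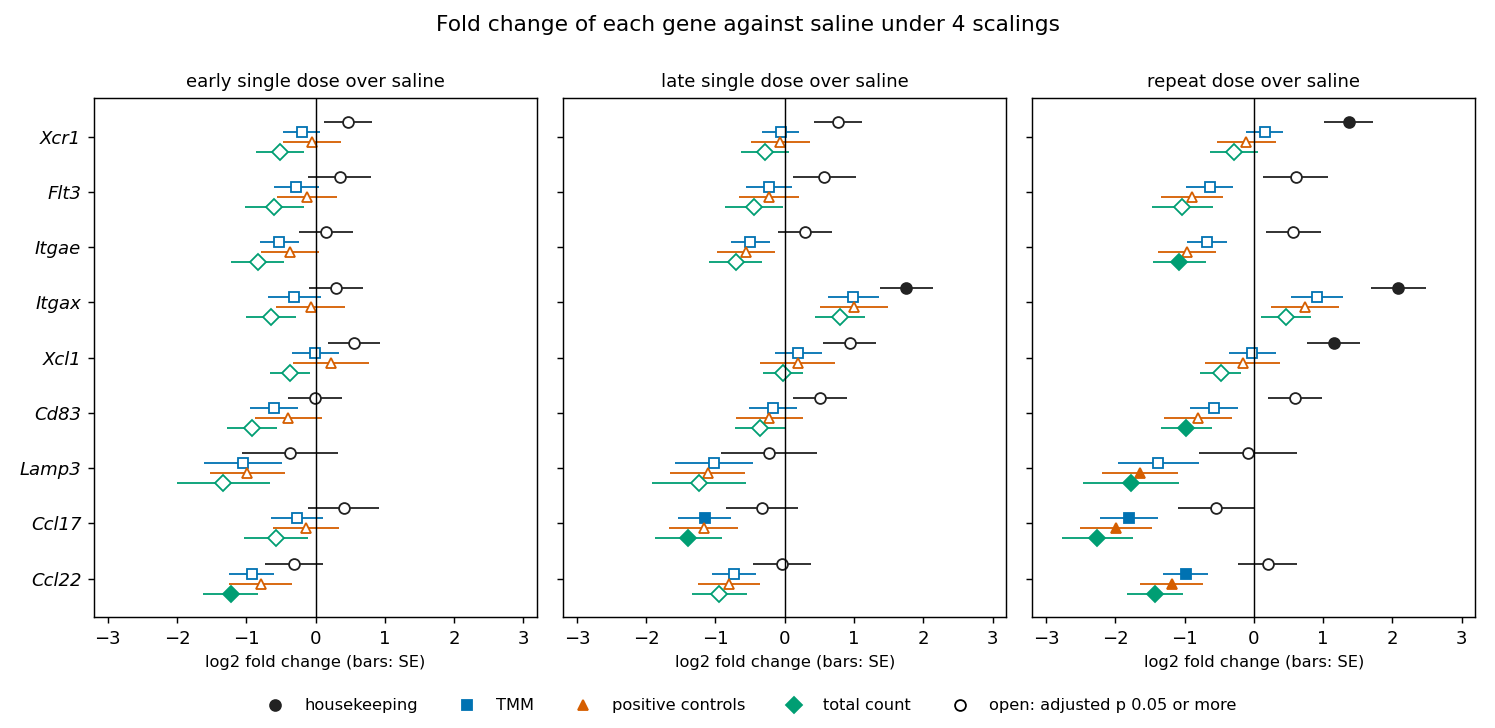
Log2 fold change of each gene against saline, with its SE as a bar, for early single-dose, late single-dose and repeat-dose tumors under 4 scalings. Filled symbols had an edgeR adjusted p under 0.05. Each value lies further left with total-count than with housekeeping scaling. The order of the genes is much the same, because 1 factor per tumor shifts all genes nearly alike. Itgax is at the right and Ccl17 and Lamp3 at the left in repeat-dose tumors, where Ccl17 was above background in 0 and Lamp3 in 1 of 3 tumors.

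With housekeeping scaling, none of the 9 genes passed in edgeR for the second dose or between the single-dose time points. DESeq2 called Itgax between those time points, at which tumor age differed too. For the repeat dose set against the late single dose, 0 of 9 genes passed in edgeR, 0 had an unadjusted p under 0.05 and 0 passed in DESeq2. In edgeR with housekeeping scaling 0% of all genes passed there (77 had an unadjusted p under 0.05), and DESeq2 with housekeeping factors called 2 of 729 higher and 1 lower. Without late single-dose tumor C, edgeR called 96 of 729 higher and 4 lower there. Leaving out Ccl17, which was near background in both groups, values ran from 0.03 (Flt3) to 0.60 (Xcr1, ± 0.35 SE, relative 0.19, edgeR adjusted p = 0.429). In late against early single-dose tumors 0 of 9 passed in edgeR with housekeeping scaling and 1 (Itgax) had an unadjusted p under 0.05. On that scale 0% of all genes passed in edgeR (57 had an unadjusted p under 0.05). With TMM scaling edgeR called 8 of 729 genes higher and 6 lower there, and by total count 10 higher and 6 lower. DESeq2 with housekeeping factors called 1 of 9 higher (Itgax), against 2.19% of all genes. The effect of the second dose minus that of the first was tested as an interaction in the same fit, with these effects measured at different tumor ages. In edgeR with housekeeping scaling 0 of 9 genes passed (0 at an unadjusted p under 0.05) and 0% of all genes (79 at an unadjusted p under 0.05). In DESeq2 with housekeeping factors 0 of 9 passed, and 18 of 729 genes were called lower and 0 higher. By total count edgeR called 5 of 729 genes lower and 0 higher, and with TMM scaling 1 lower and 0 higher. Leaving out Ccl17, the interaction ran from -0.34 ± 0.53 (SE) for Xcl1 to 0.54 ± 0.60 for Ccl22 on the housekeeping scale.

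The cross-presenting genes set against the mature ones within a tumor had their highest group mean in repeat-dose tumors, which overlapped with both other treated groups. Of the genes in this ratio, Ccl17 was above background in 0, Lamp3 in 1 and Flt3 in 1 of the 3 repeat-dose tumors. The ratio was computed without Itgax, which many macrophages also carry, and with it. The mean log2 count of Xcr1, Flt3 and Itgae minus that of Cd83, Lamp3, Ccl17 and Ccl22 averaged 0.29 ± 0.25 in repeat-dose, -0.02 ± 0.21 in late single-dose and -0.10 ± 0.26 in early single-dose tumors, against -0.50 ± 0.22 in saline tumors (SD, n = 3 each). Single tumors had 0.02, 0.34 and 0.51 in the repeat-dose group, 0.08, -0.25 and 0.12 in the late single-dose group and -0.24, 0.20 and -0.27 in the early single-dose group, against -0.73, -0.49 and -0.28 in the saline group. All 9 treated tumors lay above the highest saline tumor, although late single-dose B and early single-dose A and C did so narrowly. With the negative-probe mean subtracted, the ratio averaged 0.50 ± 0.19 in repeat-dose, 0.41 ± 0.15 in late single-dose and 0.11 ± 0.70 in early single-dose tumors, against -0.57 ± 0.22 in saline tumors (SD, n = 3 each). The early single-dose mean rests on tumor B at 0.92, since tumors A and C were at -0.30 and -0.28. Without Ccl17 the ranges were -0.49 to -0.16, -0.88 to -0.29 and -0.55 to 0.01, against -1.21 to -0.51 in saline tumors. With Itgax added, early single-dose tumor A, at -0.64, lay below saline tumor B, at -0.58. Without Lamp3 the 3 early single-dose tumors and late single-dose A and B lay below saline tumor C, at -0.21, and without Flt3 early single-dose A and C and late single-dose B lay below saline tumor C, at 0.14. Without Ccl22 an early single-dose tumor, at -0.23, lay marginally below the highest saline tumor. The 3 repeat-dose tumors lay above all saline tumors in the full ratio, with Itgax, and without each of the 7 genes in turn, on raw counts + 1, but with the negative-probe mean subtracted they overlapped with saline tumors without Lamp3 or without Xcr1. As a score over chosen genes the ratio carries no test.

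**Figure D5:**
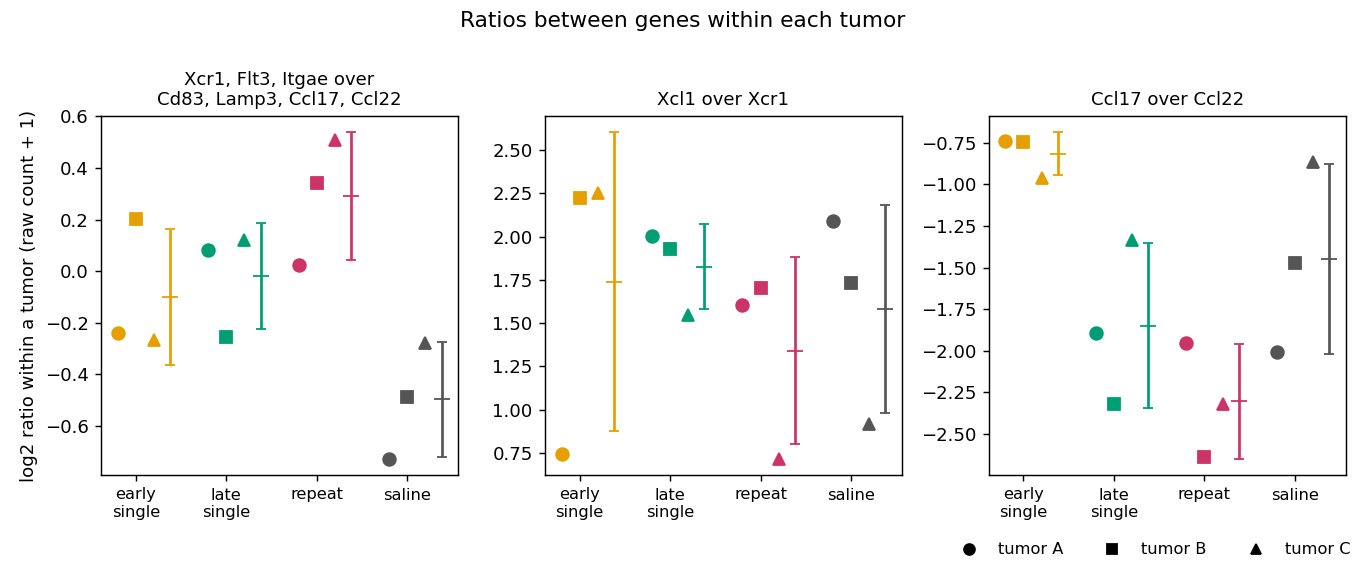
Log2 ratios of raw counts + 1 within each tumor, by group, with mean and SD beside the 3 tumors: cross-presenting over mature genes, Xcl1 over Xcr1, and Ccl17 over Ccl22. The first is lowest in the saline tumors (-0.73 to -0.28), the second overlaps in all groups, and the third is highest in the early single-dose tumors (-0.96 to -0.74).

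Other genes of dendritic cells were listed by role, with earlier results of these data known. Of 8 further genes of type 1 dendritic cells 3 were measured. Irf8, a transcription factor that these cells need and that interferon-gamma also induces, rose by 3.82 in repeat-dose, 2.66 in late single-dose and 3.24 in early single-dose tumors (log2; relative 2.63, 1.88 and 2.68; edgeR adjusted p = 0.00077, 0.0070 and 0.00316). Tlr3, a sensor of double-stranded RNA, rose by 1.16 in repeat-dose tumors (relative -0.03, edgeR adjusted p = 0.0042) and was -0.00 there with TMM scaling (adjusted p = 0.997). In early single-dose tumors Tlr3 rose by 1.27 (edgeR adjusted p = 0.0076) and by 0.64 with TMM scaling (adjusted p = 0.0457). Cd207, a lectin, was at 0.30 (relative -0.89, edgeR adjusted p = 0.740).

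Of 12 other maturation genes, 9 rose in repeat-dose, 5 in late single-dose and 2 in early single-dose tumors, and none fell. Over all genes tested, 59.4%, 39.1% and 30.5% rose in that order. The median of these 12 lay 0.46 above that of all genes in repeat-dose tumors, whereas that of the 4 mature members lay at -1.13. The latter rests in part on Ccl17 and Lamp3, above background in 0 and 1 of the 3 repeat-dose tumors. Cd274, the gene of PD-L1, a ligand that restrains T cells and is made by many cell types, rose by 4.84 ± 0.67 (SE, relative 3.65, edgeR adjusted p = 0.00077). Cd86, a costimulatory ligand, averaged 293 ± 85.9 in repeat-dose and 85.5 ± 29.6 in saline tumors (SD, n = 3 each) and rose by 1.78 (relative 0.59, edgeR adjusted p = 0.0021). Relb, a subunit of NF-κB, rose by 1.55 (relative 0.36, edgeR adjusted p = 0.0013) and was 0.32 with TMM scaling (adjusted p = 0.190). Ccr7, the migration receptor named here after its value was seen, was at 0.20 ± 0.38 (SE, relative -0.995, edgeR adjusted p = 0.700) and fell by 1.01 with TMM scaling (adjusted p = 0.0099). With TMM scaling 3 of the 12 rose and 3 fell in repeat-dose tumors, against 32.1% of all genes that rose and 23.2% that fell.

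Genes of other dendritic cell types were also measured. Of 5 plasmacytoid genes, 4 rose in repeat-dose, 3 in late single-dose and 4 in early single-dose tumors, among them the interferon-inducible Irf7, by 2.01 (log2) more than the median of all genes in repeat-dose tumors (edgeR adjusted p = 0.0020). Of 7 genes of type 2 and monocyte-derived dendritic cells, 5, 4 and 2 rose in the same order, led in repeat-dose tumors by the lectins Clec4n (2.98, relative 1.79, edgeR adjusted p = 0.0009) and Clec7a (2.66, relative 1.47, adjusted p = 0.0011). Of 5 growth and lineage factors 4, 3 and 2 rose, and of 4 partners of the members 3, 2 and 1. Over all genes 59.4%, 39.1% and 30.5% rose in that order. These counts depended on the scaling. In repeat-dose tumors with TMM scaling, 2 plasmacytoid genes rose and 1 fell, 4 type 2 and monocyte-derived genes rose and 1 fell, 2 growth and lineage factors rose and 1 fell, and 1 partner rose and 1 fell, against 32.1% of all genes that rose and 23.2% that fell. With the positive controls 1 plasmacytoid gene, 2 type 2 and monocyte-derived genes, 1 growth and lineage factor and 1 partner rose, against 15.8% of all genes. On that scale 1, 2, 0 and 1 genes of these lists fell in the same order, against 21.5% of all genes. None of the 5 plasmacytoid genes rose in late single-dose tumors with TMM scaling, with the positive controls or by total count, where 18.5%, 5.21% and 15.1% of all genes rose. With the positive controls none of these 4 lists had a gene that rose in late single-dose tumors. Macrophages carry several of these genes, so the lists do not separate the cell types. On the housekeeping scale, 2 of 8 B cell genes and 2 of 6 neutrophil genes among markers of other cells rose in repeat-dose tumors. Of 5 endothelial genes none rose and 1 fell, and of 2 melanoma genes 1 rose and 1 fell. Over all genes 59.4% rose and 1.92% fell on that scale.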

How the data were processed

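The deposited raw counts are whole-number probe counts of 12 tumors on the NanoString mouse PanCancer immune panel, from an nCounter reader per the labels' protocols. The authors' normalized signal came from nSolver per the labels. In the deposited table each value is the raw count times 1 factor per tumor, within 0.00882% for counts of 100 or more, and that table served as an alternative. The genes and lists were chosen with earlier results of these data known.

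Raw counts were scaled by the geometric mean of 20 housekeeping probes. A count was above background if it exceeded the mean of the 8 negative probes plus 2 SD in that tumor, and 729 of 750 genes did so in at least 3 tumors and were tested. The quasi-likelihood test of edgeR 4.0.16 (R 4.3.3) was fitted to all 12 tumors and adjusted by Benjamini-Hochberg over all genes tested, with a threshold of 0.05. DESeq2 1.42.0 and limma 3.58.1 were alternatives, as were TMM, total-count and positive-control scaling, other filters, subtraction of the negative-probe mean, a block by letter and each tumor left out. Each of the 9 genes was named, with the genes of the lists that had the lowest p and the 5 panel genes with the highest Pearson r. Total counts were 392596 to 1232726 per tumor. The p-values measure the spread between these tumors. Tumors of a group differed by more than counting noise (chi-square per degree of freedom 23.9 to 151.5). Same-letter residuals had correlations of -0.650 to 0.596 between groups. Without those of different letters this range cannot settle whether the letters pair tumors, and the main fit had no block by letter. Promoter sequences came from RefSeq and covered 7 of the 9 genes. Of the windows not shown, only that of Lamp3 held a motif searched. Its interferon-gamma-activated site began at -181 and its interferon regulatory factor motif at -166 from the annotated start.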

Additional observations from a re-analysis of the deposited data

How the results depend on the processing

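Of 1015 values of single genes under the alternatives, 966 kept their side of the threshold, 16 lost a call, 20 gained one and 13 reversed. The 966 include 128 values that changed sign without passing in either setting. The count of members past the threshold moved as follows. In early single-dose tumors against saline it was 0 and became 1 by total count and 1 with DESeq2's own factors. In late single-dose tumors it was 1 and became 0 with positive controls, 0 with the filter on all tumors (which leaves out Itgax), 0 with only the groups compared, and 2 with DESeq2 under either factors. In repeat-dose tumors it was 3, all higher. It became 2 with TMM, 3 with positive controls and 5 by total count, all lower and none of them the 3 genes called higher, 5 with DESeq2's own factors (1 higher and 4 lower), 2 with the filter on all tumors, 2 with only the groups compared and 1 with the negative mean subtracted. In late against early single-dose tumors it was 0 and became 1 (Itgax) with DESeq2 under either factors. Leaving out each tumor gave 1 to 3 in late single-dose tumors (3 without saline A or without late single-dose B), 2 to 4 in repeat-dose tumors, and 0 to 0 in the other comparisons. With the replicate block, by letter, the counts were 0, 1 and 3 against saline for early, late and repeat dose and 0 elsewhere, so the block changed no count.

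Reversed values in repeat-dose tumors against saline (log2) were Xcr1 at -0.28 by total count and -0.11 with positive controls. Xcl1 was at -0.023 with TMM, -0.48 by total count, -0.16 with positive controls and -0.030 with DESeq2's own factors. Itgae was at -1.07 by total count and -0.69 with DESeq2's own factors, and Cd83 at -0.97 by total count. Ccl22 was at -0.99 with TMM, -1.42 by total count, -1.18 with positive controls and -0.99 with DESeq2's own factors. Scalings differ because the housekeeping mean was lowest in repeat-dose tumors. Whether RNA quality or treatment moved it was not tested. Counts near background limit Ccl17, Lamp3 and Flt3.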
